A study of Rattus norvegicus with 15 samples.

Results

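Enteric neurons, the nerve cells inside the gut wall, were followed here through 9 genes: Vip, Tac1, Nos1, Chat, Npy and Cartpt, which make transmitters or their synthetic enzymes, and Uchl1, Elavl4 and Ret, which mark the neurons themselves. The members were all array probes outside the control spots whose gene name in the deposited files is one of these 9 symbols. They came to 13 probes among 41012 on the array, of which 22503 carry a gene name. Each probe was kept apart, because probes of 1 gene can bind different transcripts. In all, 15 male rats were profiled with 1 array per rat, 5 in each of 3 groups. Wistar rats, which are nondiabetic, had no operation. GK-Sham-PF rats are Goto-Kakizaki (GK) rats, a lean strain bred from Wistar rats with inherited type 2 diabetes, that had a sham operation and were pair-fed. In the sham operation the bowel was cut 16 cm from the ligament of Treitz, where the jejunum begins, and rejoined without rearrangement. GK-S-30 rats are GK rats after Roux-en-Y gastric bypass (RYGB) with a Roux limb (RL) of 30 cm, the stretch of jejunum joined to the stomach. GK rats were operated at 16 wk of age, and tissue was taken 14 wk postoperation. From GK-S-30 rats it was a piece of RL 5 cm long, 5 cm from the junction with the stomach. From GK-Sham-PF and Wistar rats it was the piece from 21 to 26 cm past the ligament of Treitz. Diabetes and strain are not separated in the comparison with Wistar rats, which also differ from GK-Sham-PF rats in operation and feeding. GK-Sham-PF against Wistar rats is called the strain comparison here, and GK-S-30 rats set against GK-Sham-PF rats the bypass comparison. The labels name an intestinal segment and do not say whether the whole wall was taken.

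Enteric neurons lie in 2 plexuses. The myenteric plexus, between the muscle layers, drives contraction and relaxation, and the submucosal plexus controls secretion and blood flow. Acetylcholine, made by the enzyme that Chat encodes, and the tachykinins substance P and neurokinin A, both cut from the Tac1 precursor, excite the muscle. Nitric oxide, made by the neuronal synthase of Nos1, and vasoactive intestinal peptide (VIP) relax it. VIP and neuropeptide Y (NPY) are also made by secretomotor neurons of the submucosa, where VIP drives and NPY restrains secretion. The CART peptide of Cartpt is a co-transmitter of myenteric neurons. Uchl1 encodes PGP9.5, a neuronal deubiquitinase, Elavl4 encodes the neuronal RNA-binding protein HuD, and Ret encodes the receptor tyrosine kinase through which glial cell line-derived neurotrophic factor (GDNF) lets enteric neurons settle in the gut and survive.

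Probes of Vip, Npy and Tac1 carried the differences between the groups, and their oligonucleotides are shown so that the part of each transcript that was read is known. Each is 60 bases long and printed 5′ to 3′ on the transcript strand, in lower case because no base is singled out.
Vip A_42_P719221: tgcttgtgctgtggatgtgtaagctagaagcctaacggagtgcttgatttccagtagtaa
Npy A_42_P771373: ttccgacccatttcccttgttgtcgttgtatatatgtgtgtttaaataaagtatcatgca
Tac1 A_43_P15247: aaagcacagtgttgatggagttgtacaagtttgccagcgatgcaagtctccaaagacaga
In the files' rat genome build (rn4) the Vip probe lies on chromosome 1 at chr1:36369392-36369451, the Npy probe on chromosome 4 at chr4:78045125-78045184 and the Tac1 probe on the same chromosome at chr4:32657311-32657369, all on the plus strand. The files assign the Tac1 probe to all 4 Tac1 transcripts they list, so it does not tell the precursor forms apart. Npy and Tac1 were spotted 10 times per array and Vip once.

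The probes of Ret and Elavl4 are printed because probes of the same gene read different stretches and differed in whether they could be measured.
Ret A_42_P602822: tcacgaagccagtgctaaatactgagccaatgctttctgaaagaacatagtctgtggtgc
Ret A_44_P308662: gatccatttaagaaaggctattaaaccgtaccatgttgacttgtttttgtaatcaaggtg
Ret A_44_P153972: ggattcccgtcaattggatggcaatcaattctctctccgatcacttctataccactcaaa
Ret A_44_P480153: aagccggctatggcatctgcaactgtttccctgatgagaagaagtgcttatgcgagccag
Elavl4 A_42_P792864: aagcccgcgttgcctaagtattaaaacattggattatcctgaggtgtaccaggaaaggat
Elavl4 A_44_P116489: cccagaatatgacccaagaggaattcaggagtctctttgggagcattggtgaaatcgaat
All 4 Ret probes lie on the minus strand of chromosome 4 in rn4. In the files, A_42_P602822 (chr4:154451073-154451132) belongs to Ret transcript variant 2 only, A_44_P308662 (chr4:154448221-154448280) to variant 1 only and A_44_P480153 (chr4:154468435-154468494) to both, and A_44_P153972 (chr4:154460013-154460072) is described as an mRNA of the RET9 isoform. Both Elavl4 probes lie on the minus strand of chromosome 5 and are assigned to 1 and the same RefSeq transcript, A_42_P792864 near its 3′ part (chr5:131672026-131672085) and A_44_P116489 nearer its 5′ end (chr5:131732813-131732872).

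Levels are given as log2 of the quantile-normalized processed signal, an intensity in arbitrary units, so a difference of 1 is a 2-fold difference. They compare rats within a probe and never one probe with another. The test took probes called well above background by the image software on all 5 arrays of some group, which held for 9 of the 13 member probes, from 7 genes, and for 17029 named probes in all. The share of probes well above background was 66.7% to 74.8% per array. The 75th percentile of the processed signal before normalization was lower in Wistar 3 (225) and GK-Sham-PF 5 (224) than in the other arrays, where it lay between 329 and 384. The arrays were on 4 slides. Slide A held Wistar 2 to 5, slide B Wistar 1 and GK-Sham-PF 1 to 3, slide C GK-Sham-PF 4 and 5 with GK-S-30 1 and 2, and slide D GK-S-30 3 to 5, so no slide held both Wistar and GK-S-30 rats. Any comparison with Wistar rats made within slides rests on Wistar 1 alone, because slide A held no other group.

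Vip and Npy were higher in GK-Sham-PF than in Wistar rats, and higher in GK-S-30 than in Wistar rats, by 1.63- to 2.60-fold. Tac1 was highest in GK-S-30 rats, above both other groups, by 1.77-fold against GK-Sham-PF and 2.20-fold against Wistar rats. The other 6 tested probes, of Cartpt, Uchl1, Elavl4 and Ret, did not pass the test in any comparison. Chat and Nos1 were too dim to test. No member probe was called lower. In a piece of tissue, fewer cells of a type and less RNA per cell cannot be told apart, and the same holds for more of either.

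**Figure D1:**
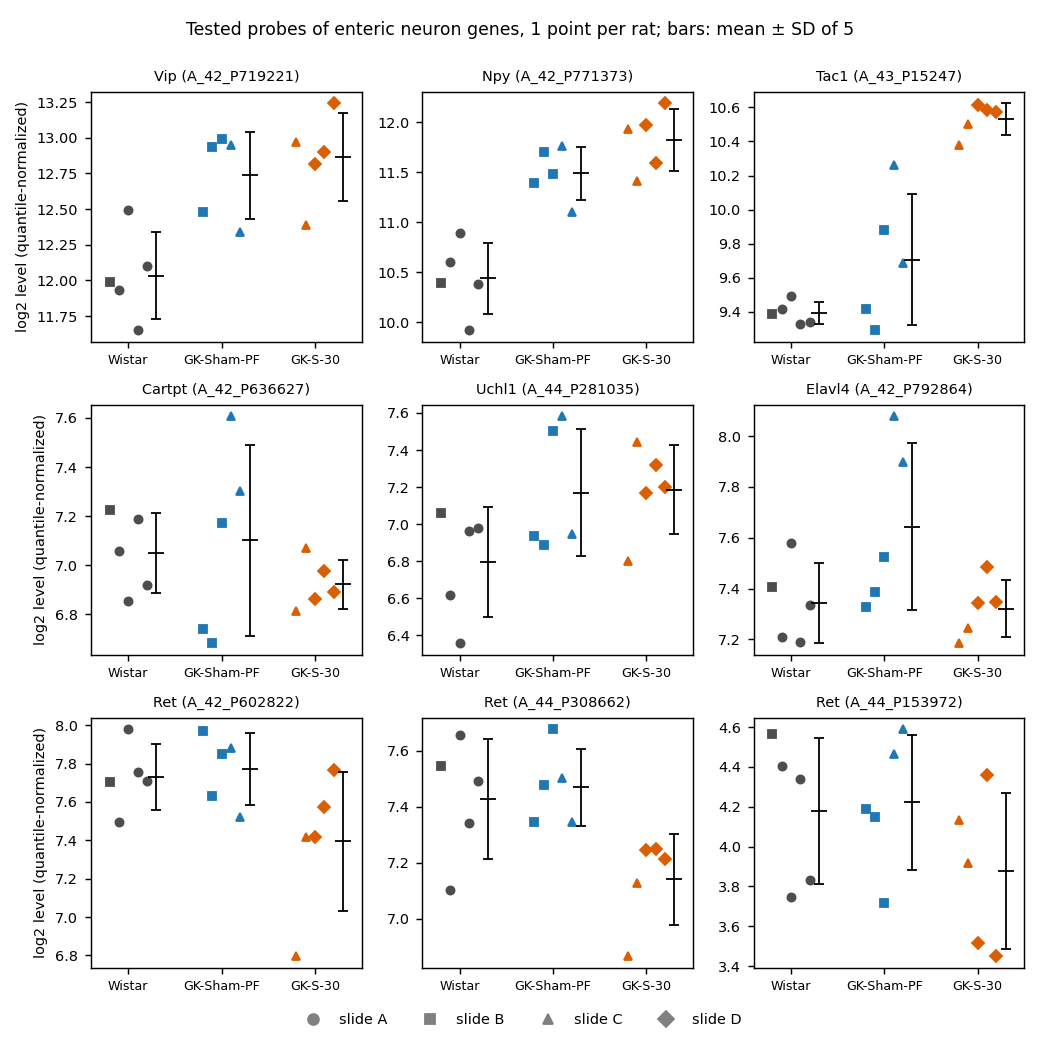
Quantile-normalized log2 level (y axis) of each of the 9 tested probes in 3 groups (x axis), with 1 point per rat, the point's shape giving the slide, and a bar for the mean ± SD of 5 rats. The 5 GK-S-30 rats lie above all other rats for Tac1, between 10.38 and 10.62, and the Wistar rats lie below all GK rats for Npy, between 9.92 and 10.89.

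Vip gave 11.99, 11.93, 12.49, 11.65 and 12.10 in Wistar rats 1 to 5, 12.48, 12.93, 12.99, 12.95 and 12.34 in GK-Sham-PF rats 1 to 5, and 12.97, 12.39, 12.82, 12.90 and 13.24 in GK-S-30 rats 1 to 5. Wistar 3, the highest Wistar rat, overlapped with the lower rats of both GK groups, while the other 4 Wistar rats lay below all GK rats. Wistar 3 and GK-Sham-PF 5, the lowest GK rat, were the 2 dimmer arrays. Before normalization the processed signal of Wistar 3 was 3991, the median of the Wistar rats. The mean level rose from 12.03 ± 0.31 (SD, n = 5) in Wistar to 12.74 ± 0.31 in GK-Sham-PF rats, a log2 fold change of 0.71 (standard error 0.18, limma adjusted p = 0.0264). GK-S-30 rats, at 12.86 ± 0.31, were above Wistar rats by 0.83 (limma adjusted p = 0.00414). In the bypass comparison the difference was 0.13 with a 95% interval from -0.26 to 0.52 (limma adjusted p = 0.756), and their ranges overlapped. The call in the strain comparison rested on single rats: without any 1 of Wistar 1, 2 and 4 or GK-Sham-PF 2, 3 and 4 the adjusted p lay between 0.058 and 0.0757. With slide as a block it was 0.515, and the difference was 0.81 within slide B (3 GK-Sham-PF rats and 1 Wistar rat). The blocked difference for GK-S-30 against Wistar rats, which share no slide and are linked through GK-Sham-PF rats on slides B and C, was 0.84 and did not pass either (adjusted p = 0.432).

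Npy gave 10.40, 10.61, 10.89, 9.92 and 10.39 in Wistar rats 1 to 5. It gave 11.39, 11.70, 11.49, 11.76 and 11.10 in GK-Sham-PF rats and 11.93, 11.42, 11.97, 11.59 and 12.19 in GK-S-30 rats, in the same order. Every Wistar rat lay below every GK rat, and the GK groups overlapped. The mean rose from 10.44 ± 0.35 (SD, n = 5) in Wistar to 11.49 ± 0.26 in GK-Sham-PF rats, a log2 fold change of 1.05 (standard error 0.19, 2.07-fold, limma adjusted p = 0.00179). At 11.82 ± 0.31 in GK-S-30 rats it was 1.38 above Wistar rats (2.60-fold, limma adjusted p = 7.99e-05), the highest fold of any member. The bypass comparison gave a difference of 0.33 with a 95% interval from -0.06 to 0.73 (limma adjusted p = 0.320). Within slide B the GK-Sham-PF rats were 1.13 above the Wistar rat. With slide as a block GK-S-30 rats were 1.37 above Wistar rats (standard error 0.48), a value that rests on Wistar 1 as the only Wistar rat. Neither call against Wistar rats passed with the block (adjusted p = 0.258 for GK-Sham-PF and 0.210 for GK-S-30 rats).

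Tac1 gave 9.39, 9.42, 9.49, 9.33 and 9.34 in Wistar rats 1 to 5, a span narrower than in any other tested member probe in Wistar rats. GK-Sham-PF rats 1 to 5 gave 9.42, 9.29, 9.88, 10.26 and 9.69, from just below the Wistar range to above it. GK-S-30 rats 1 to 5 gave 10.38, 10.50, 10.62, 10.59 and 10.57. All GK-S-30 rats lay above all GK-Sham-PF rats, with GK-Sham-PF 4 the nearest, and further above all Wistar rats. The mean was 9.39 ± 0.07 (SD, n = 5) for Wistar rats, 9.71 ± 0.39 for GK-Sham-PF rats and 10.53 ± 0.09 for GK-S-30 rats. The log2 fold change was 0.82 in the bypass comparison (standard error 0.14, limma adjusted p = 0.00286) and 1.14 for GK-S-30 against Wistar rats (limma adjusted p = 4.75e-05). GK-Sham-PF and Wistar rats differed by 0.31, which did not pass (limma adjusted p = 0.246). Within slide C, 2 GK-S-30 rats were 0.47 above 2 GK-Sham-PF rats, and with slide as a block the adjusted p was 0.286 in the bypass comparison. For GK-S-30 against Wistar rats the blocked difference was 0.61 (standard error 0.32) in place of 1.14, with an adjusted p of 0.407.

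Cartpt ranged from 6.85 to 7.23 among Wistar rats (median 7.06). Among GK-Sham-PF rats it ranged from 6.68 to 7.61 (median 7.17), and among GK-S-30 rats from 6.82 to 7.07 (median 6.89). The GK-Sham-PF rats spanned the other groups, with GK-Sham-PF 1 and 2 lowest and 4 highest of all 15 rats. None of its 3 differences passed, the largest being -0.18 in the bypass comparison with a 95% interval from -0.51 to 0.15 (limma adjusted p = 0.556).

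Chat and Nos1, the enzymes of the main excitatory and the main inhibitory transmitter of the muscle, had no probe bright enough for the test. Chat was well above background on arrays of 2 Wistar rats, 4 GK-Sham-PF rats and 3 GK-S-30 rats, at log2 levels of 2.69 to 4.95 among Wistar rats, 3.21 to 4.10 among GK-Sham-PF rats and 3.09 to 6.11 among GK-S-30 rats. The highest values, 6.11 in GK-S-30 4 and 4.95 in Wistar 4, came from single rats, each from 1 spot. Nos1 was spotted 10 times per array, and on no array were at least 50% of its retained spots well above background. Of its 150 spots over all arrays, 8 were well above background, on 8 different arrays, and the image software had marked 7 of these 8 as outliers. Slc18a3 and Slc5a7, which encode the transporter that loads acetylcholine into vesicles and the one that returns choline to the nerve ending, were tested, and neither passed in any comparison. For Slc18a3 the log2 fold changes were 0.19 in the strain comparison, -0.19 in the bypass comparison and 0.0022 for GK-S-30 against Wistar rats.

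Among the markers of the neurons themselves, Uchl1 gave levels of 6.36 to 7.06 among Wistar rats (median 6.96), 6.89 to 7.58 among GK-Sham-PF rats (median 6.95) and 6.80 to 7.44 among GK-S-30 rats (median 7.20). The groups overlapped, and the lowest value was in Wistar 3, a dimmer array. The differences from Wistar rats were 0.38 for GK-Sham-PF (limma adjusted p = 0.260) and 0.39 for GK-S-30 rats (limma adjusted p = 0.125). Elavl4, read by A_42_P792864, ranged from 7.19 to 7.58 among Wistar rats, from 7.33 to 8.08 among GK-Sham-PF rats and from 7.19 to 7.48 among GK-S-30 rats. GK-Sham-PF 4 and 5 stood above all other rats, at 8.08 and 7.90, and both were on slide C. The difference in the bypass comparison was -0.32 (limma adjusted p = 0.181), and with slide as a block, which compares those 2 rats with the 2 GK-S-30 rats beside them, it was -0.77 and passed (adjusted p = 0.0271). The other Elavl4 probe, A_44_P116489, was well above background on no array.

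Ret was read by 3 tested probes, of which A_44_P308662 and A_42_P602822 were well above background on all 15 arrays, and in both of these the mean of GK-S-30 rats was the lowest of the 3 groups. A_44_P308662 gave 7.54, 7.10, 7.66, 7.34 and 7.49 in Wistar rats 1 to 5, 7.34, 7.48, 7.68, 7.50 and 7.35 in GK-Sham-PF rats and 6.87, 7.13, 7.25, 7.25 and 7.21 in GK-S-30 rats. All GK-S-30 rats lay below all GK-Sham-PF rats, while Wistar 2 lay within the GK-S-30 range. The log2 fold change in the bypass comparison was -0.33 (standard error 0.12), which did not pass the adjusted test (limma adjusted p = 0.0964). For GK-S-30 against Wistar rats it was -0.29 (limma adjusted p = 0.0843). Of the 29 settings described at the end, 28 did not pass, and only the one without Wistar 2 did (-0.37, adjusted p = 0.0269). With 1 array left out at a time the difference ranged from -0.37 to -0.22, with a limma adjusted p of up to 0.19. A_42_P602822 gave -0.38 against GK-Sham-PF (limma adjusted p = 0.167) and -0.33 against Wistar rats (limma adjusted p = 0.136), with GK-S-30 1 the lowest rat at 6.80. A_44_P153972, far dimmer, was well above background on all arrays of Wistar and GK-Sham-PF rats but on only 2 of 5 GK-S-30 arrays. It therefore entered the test through the other groups, and its differences of -0.35 (limma adjusted p = 0.378) and -0.30 (limma adjusted p = 0.336) do not count beside the other probes. GK-Sham-PF and Wistar rats differed by 0.04 in each of the 3 probes. Probes of 1 gene share their RNA, so they are not independent. The fourth probe, A_44_P480153, was well above background on 1 GK-S-30 array and on no other.

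**Figure D2:**
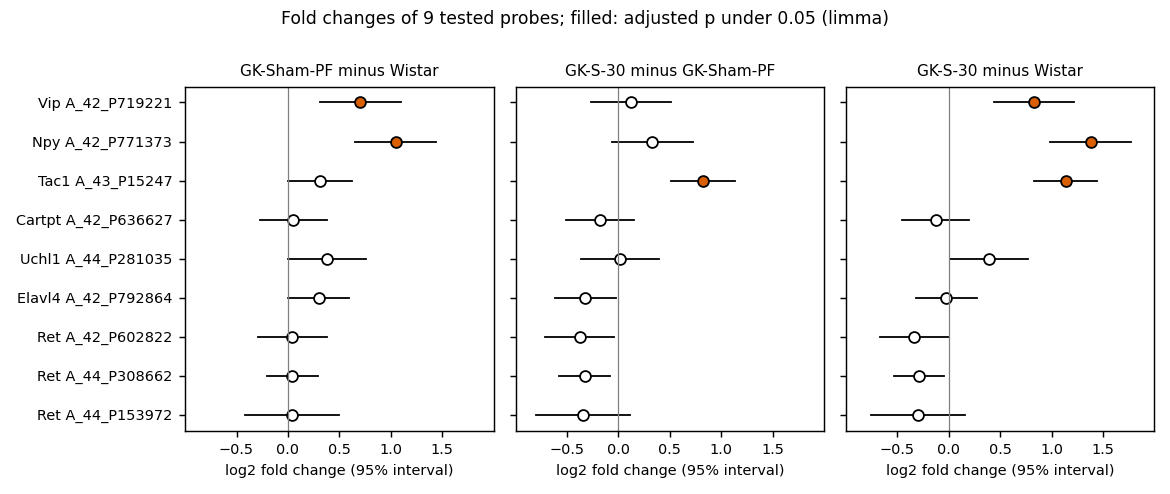
Log2 fold change (x axis) of the 9 tested probes (y axis) in the 3 comparisons, with 95% intervals from the limma fit; filled points passed an adjusted p of 0.05. Vip and Npy passed in both comparisons with Wistar rats, Tac1 passed in both comparisons with GK-S-30 rats, and the 3 Ret probes, of which A_44_P153972 was well above background in only 2 of 5 GK-S-30 rats, lie between -0.38 and -0.29 wherever GK-S-30 rats are compared.

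Counted over the 9 tested probes, 2 were called higher in GK-Sham-PF than in Wistar rats (Vip and Npy), against 7.88% of all 17029 tested probes called in either direction, 3.74% higher and 4.14% lower. In the bypass comparison 1 was called higher (Tac1), against 8.36% of all tested probes, 4.77% higher and 3.59% lower. Between GK-S-30 and Wistar rats 3 were called higher (Vip, Npy and Tac1), against 24.1%, of which 11.9% were higher and 12.2% lower. The arrays of the groups did not overlap in 1, 2 and 2 member probes in these comparisons, against 9.04%, 8.39% and 18.3% of all tested probes. With 9 probes, these counts are small and do not set the members apart from the array as a whole. The median log2 fold change of the 9 probes was 0.30, -0.18 and -0.02, beside 0.01, -0.02 and -0.01 over all tested probes. In the strain comparison all 9 differences were above 0, while in each of the other comparisons 4 of 9 were. These counts and medians include Ret A_44_P153972, which was tested only through Wistar and GK-Sham-PF rats. Ret gave 3 of the 9 probes and so weighs more than the other genes. With each of the 7 tested genes read by its brightest probe, the medians were 0.31, 0.02 and 0.39. By gene, 7, 4 and 4 of the 7 differences were above 0. The comparisons share arrays in pairs, so their values are given side by side only.

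Vip and Npy, both higher in GK than in Wistar rats, have different sequence upstream of their first exon. The windows below reach from 250 bases before to 50 bases after the gene's start and are taken from RefSeq on the GRCr8 assembly, on which all 9 members have a window. Capitals mark matches to CGTCA, or to TGACG on the other strand, the half-site of the cyclic AMP response element (CRE), through which cyclic AMP signaling switches on genes.
Vip chr1:44470230-44470529, plus strand: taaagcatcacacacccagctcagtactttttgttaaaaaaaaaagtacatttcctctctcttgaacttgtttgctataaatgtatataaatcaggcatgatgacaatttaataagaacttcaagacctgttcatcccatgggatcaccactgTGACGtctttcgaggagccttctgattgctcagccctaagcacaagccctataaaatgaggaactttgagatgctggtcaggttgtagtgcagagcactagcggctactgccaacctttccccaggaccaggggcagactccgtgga
Npy chr4:80211861-80212160, plus strand: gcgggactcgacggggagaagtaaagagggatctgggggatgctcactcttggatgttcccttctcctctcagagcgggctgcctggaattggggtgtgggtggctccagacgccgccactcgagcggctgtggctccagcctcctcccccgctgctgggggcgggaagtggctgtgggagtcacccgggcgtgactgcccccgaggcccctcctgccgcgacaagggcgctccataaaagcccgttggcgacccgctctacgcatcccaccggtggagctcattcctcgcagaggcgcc
The half-site occurred once in the Vip window, beginning 97 bases before the start, and not in the Npy window. It was found in the windows of 5 of the 9 members (Vip, Tac1, Nos1, Chat and Cartpt) and in 21.2% of all 33469 windows. The full element TGACGTCA, which contains the half-site on both strands, was found in Nos1 and Cartpt and in 1.83% of all windows. Of these, Cartpt passed in no comparison and Nos1 could not be tested. These are matches of letters in a fixed window and say nothing of binding.

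Other transmitter genes of enteric and visceral neurons were read from a list of 24 genes, of which 19 had a tested probe, each gene by its brightest. Calls in this and the lists that follow stand beside 7.88%, 8.36% and 24.1% of all tested probes in the strain comparison, the bypass comparison and GK-S-30 against Wistar rats. In the strain comparison 3 of 19 were called, all higher: Gal, which encodes galanin, a peptide often made by the same neurons as VIP, by 0.86 (limma adjusted p = 0.0023), Grp, which encodes gastrin-releasing peptide, by 0.95 (limma adjusted p = 0.0134), and the tachykinin gene Tac3 by 0.38 (limma adjusted p = 0.0464). Gal and Grp were likewise above Wistar in GK-S-30 rats, by 0.91 and 1.43 (limma adjusted p = 0.000691 and 0.000261). The Gal level was 10.84 ± 0.24 (SD, n = 5) for Wistar rats, 11.70 ± 0.29 for GK-Sham-PF rats and 11.75 ± 0.23 for GK-S-30 rats, an order like that of Vip, and it was not called in the bypass comparison.

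In the bypass comparison 2 of the 19 were called, Calcb higher and Th lower. Of the 19 differences 7 were above 0, and their median log2 fold change was -0.14. Calcb, which encodes the beta form of calcitonin gene-related peptide (CGRP), made by intrinsic sensory neurons, rose by 0.94 (limma adjusted p = 0.0134) and lay 1.52 above Wistar rats (limma adjusted p = 0.00011). Its levels were 7.21 ± 0.15 (SD, n = 5) for Wistar rats, 7.78 ± 0.51 for GK-Sham-PF rats and 8.73 ± 0.32 for GK-S-30 rats, the same order as Tac1. Th, the first enzyme of catecholamine synthesis, fell by 0.58 against GK-Sham-PF (limma adjusted p = 0.00573) and by 0.81 against Wistar rats (limma adjusted p = 0.00011). It was dim, at 5.28 ± 0.18 (SD, n = 5) for Wistar, 5.05 ± 0.13 for GK-Sham-PF and 4.47 ± 0.19 for GK-S-30 rats. The size of its fall is therefore uncertain. In GK-S-30 against Wistar rats 8 of 19 were called, 5 higher (Calca, Calcb, Gal, Grp and Nmu) and 3 lower (Ache, Sst and Th). Ache, which encodes the enzyme that breaks down acetylcholine, was 0.40 lower (limma adjusted p = 0.0298), and Sst, which encodes somatostatin, a product of both neurons and endocrine cells, was 0.37 lower (limma adjusted p = 0.00999).

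Of a list of 30 genes expressed in neurons, called pan-neuronal here, 25 were tested. In the bypass comparison, in which Tac1 was called higher, none of the 25 was called higher by limma. At an unadjusted p under 0.05, 0 were higher and 8 lower. There 8 of the 25 differences were above 0, and 4 genes were called, all lower: Prph, the intermediate filament peripherin of enteric neurons, by 0.61 (limma adjusted p = 0.0198), Ncam1, Rtn1 and Dcx. In GK-Sham-PF against Wistar rats 2 were called, both higher: Rtn1, a protein of the endoplasmic reticulum of neurons, by 0.92 (limma adjusted p = 1.92e-05) and Elavl2, a relative of Elavl4, by 1.01 (limma adjusted p = 0.00118). Elavl2 was dim, at 3.54 ± 0.37 (SD, n = 5) for Wistar, 4.56 ± 0.26 for GK-Sham-PF and 4.39 ± 0.20 for GK-S-30 rats. The size of its differences from Wistar rats is therefore uncertain. The same holds for the fall of Dcx, from 5.03 ± 0.26 in GK-Sham-PF to 4.39 ± 0.41 in GK-S-30 rats. Stx1a, named below, was also dim, at 4.72 ± 0.20 in Wistar and 4.28 ± 0.22 in GK-S-30 rats. In GK-S-30 against Wistar rats 3 were called higher (Elavl2, Rtn1 and Scg2) and 4 lower (Ncam1, Prph, Stx1a and Syn1). The median log2 fold change of the 25 genes was 0.13, -0.14 and 0.04 in the strain comparison, the bypass comparison and GK-S-30 against Wistar rats. Their summed signal ran from 4284 to 4922 in Wistar, from 4706 to 6031 in GK-Sham-PF and from 4161 to 4773 in GK-S-30 rats.

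Around Ret, 20 of 21 genes of enteric nervous system development and of the RET pathway were tested. Gdnf, its ligand, differed by between -0.08 and 0.04 in the 3 comparisons and passed in none. Gfra1, the co-receptor that presents GDNF to RET, was 0.49 higher in GK-S-30 than in Wistar rats (limma adjusted p = 0.0176). Nrtn and Artn, which encode 2 relatives of GDNF, fell in GK-S-30 against Wistar rats, by 0.48 and 0.58 (limma adjusted p = 0.0298 and 0.00199), and Artn also in GK-Sham-PF rats, by 0.63 (limma adjusted p = 0.00231). Zeb2, a transcription factor of neural crest cells, lay 1.45 below Wistar rats in GK-Sham-PF rats and 1.42 below them in GK-S-30 rats (limma adjusted p = 0.000406 and 0.000241). The cell adhesion gene L1cam rose in GK-S-30 against both other groups, by 0.83 in the bypass comparison (limma adjusted p = 0.0118), where Ece1, an enzyme that activates endothelins, fell by 0.36 (limma adjusted p = 0.0375). In all, 2, 2 and 6 of these 20 genes were called in the strain comparison, the bypass comparison and GK-S-30 against Wistar rats, shares near the 7.88%, 8.36% and 24.1% of all tested probes.

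Receptors and effectors of the members' transmitters were called in GK-S-30 against Wistar rats only, 5 of 15, and the differences between comparisons were not tested. Tacr1 and Tacr2, the main receptors for substance P and neurokinin A, were 0.41 and 0.46 lower (limma adjusted p = 0.0176 and 0.0202), and Tacr3, a receptor of the same family, was 0.70 higher (limma adjusted p = 0.0231). Chrna3, a subunit of the nicotinic receptor between enteric neurons, was 0.36 higher and Gucy1b3, a subunit of the guanylate cyclase that senses nitric oxide, 0.51 higher (limma adjusted p = 0.0379 and 0.0197). The VIP receptors Vipr1 and Vipr2 did not pass in any comparison, with log2 fold changes between -0.51 and -0.04. The NPY receptors Npy1r and Npy5r were well above background on no array and Npy2r on 2. In the other comparisons 0 of 15 passed by limma, with smallest adjusted p of 0.211 in the strain and 0.149 in the bypass comparison, and 1 gene in each had an unadjusted p under 0.05.

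Enteric glia, the support cells of the plexuses, were read by 11 tested genes of 16, while their defining gene S100b was well above background on no array. In GK-Sham-PF against Wistar rats Cnp and Ngfr were called higher, by 0.74 and 0.41 (limma adjusted p = 0.00174 and 0.0158). In the bypass comparison Entpd2 rose by 0.61, and Gfap and Scn7a fell by 0.32 and 0.49 (limma adjusted p = 0.0118, 0.0473 and 0.0436). Gfap was dim, at 4.32 ± 0.21 (SD, n = 5) for GK-Sham-PF and 4.00 ± 0.05 for GK-S-30 rats, so the size of its fall is uncertain. In GK-S-30 against Wistar rats 3 were higher (Cnp, Entpd2 and Ngfr) and Scn7a was lower.

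**Figure D3:**
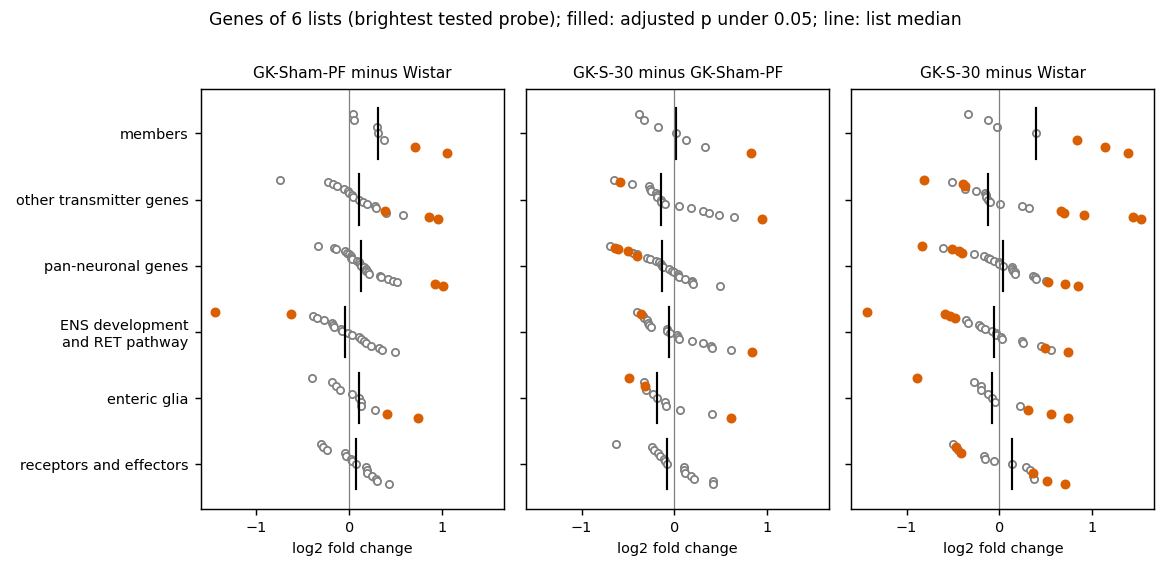
Log2 fold change (x axis) of each gene of 6 lists (y axis) in the 3 comparisons, 1 point per gene read by its brightest tested probe; filled points passed an adjusted p of 0.05, and a vertical line marks the median of the list. The pan-neuronal genes called in the bypass comparison all lie below 0. Of the members and other transmitter genes called there, Tac1 (0.82) and Calcb (0.94) lie above 0 and Th lies below it. The median in that comparison was -0.14 for the other transmitter genes and -0.14 for the pan-neuronal genes.

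Markers of several other cell types differed in the GK-S-30 group. Of 8 tested smooth muscle genes 4 rose against GK-Sham-PF rats, Actg2, Des, Cnn1 and Tagln, by 1.45 to 2.35, and Smtn rose as well against Wistar rats. Their summed signal lay between 86982 and 113209 in GK-S-30 rats, above 24943 to 52949 in GK-Sham-PF and 27157 to 47686 in Wistar rats. GK-Sham-PF 4, at 52949, was well above the other 4 GK-Sham-PF rats, which reached at most 28106, and it was also the highest GK-Sham-PF rat for Npy, Tac1, Cartpt, Uchl1 and Elavl4. Of 7 tested tuft cell genes 6 rose against GK-Sham-PF rats, and their summed signal was 3126 to 4866 in GK-S-30, 1453 to 2782 in GK-Sham-PF and 1777 to 2678 in Wistar rats. Of 8 fibroblast genes 5 rose, with a summed signal of 24975 to 28099 in GK-S-30, 18799 to 24377 in GK-Sham-PF and 18732 to 27584 in Wistar rats. Tac1 is also expressed in enterochromaffin cells, endocrine cells that make serotonin. Of 13 tested enteroendocrine genes 4 were called higher in the bypass comparison, among them Tph1, the serotonin-synthesizing enzyme of these cells, by 0.53 (limma adjusted p = 0.0177), and in GK-Sham-PF against Wistar rats Tph1 was 0.46 lower (limma adjusted p = 0.0357). In GK-S-30 against Wistar rats 2 of the 13 were called higher and 2 lower, with a median log2 fold change of 0.08. The summed signal of the 13 enteroendocrine genes overlapped between groups, at 65119 to 88497 in GK-S-30, 59318 to 80555 in GK-Sham-PF and 70142 to 86450 in Wistar rats. Leukocyte genes moved the other way: of 7 tested, Cd3e and Cd3g, both of T cells, fell in the bypass comparison, by 0.76 and 0.47 (limma adjusted p = 0.00977 and 0.0378). Against Wistar rats 4 were lower in GK-S-30 rats (Cd3e, Cd3g, Cd68 and Lyz2) and Cd79b, a B cell gene, was 1.30 higher (limma adjusted p = 0.00281). Their summed signal was 37185 to 53997 in GK-S-30 rats, below all Wistar rats (58098 to 74860) and overlapping with GK-Sham-PF rats (52480 to 66205). By the mean log2 level of these genes GK-S-30 rats (9.71 to 9.95) overlapped with Wistar rats (9.81 to 10.26) as well. Of 8 tested genes of interstitial cells of Cajal, the pacemaker cells beside the plexuses, 0 passed in the bypass comparison by limma (2 at an unadjusted p under 0.05), and Gja1 and Thbs4 were higher in GK-S-30 than in Wistar rats. Their summed signal was 1502 to 2298 in Wistar, 1945 to 2564 in GK-Sham-PF and 2486 to 3640 in GK-S-30 rats. By this sum, in which bright genes weigh most, GK-S-30 rats lay above all Wistar rats. By the mean log2 level of the same genes the 2 groups overlapped, at 6.90 to 7.14 in GK-S-30 and 6.65 to 6.96 in Wistar rats. Of 10 epithelial genes 1 was called higher in the bypass comparison and 2 in GK-S-30 against Wistar rats. Of 4 stomach, 5 pancreatic acinar and 4 adipose or mesothelial genes, 0, 1 (lower) and 0 were called in the bypass comparison. In GK-S-30 against Wistar rats 1 (lower), 2 (1 higher, 1 lower) and 1 (lower) were called. The part of muscle, Cajal cells, tuft cells, fibroblasts, epithelium, endocrine cells or leukocytes in the Tac1 difference was not tested. In the strain comparison, where Vip and Npy rose, the fibroblast gene Mfap5 and the leukocyte gene Cd79b were higher, by 0.99 and 0.98 (limma adjusted p = 0.00496 and 0.0381), and Ghrl, which encodes ghrelin, was 1.31 lower (limma adjusted p = 0.0215) beside Tph1. Of the smooth muscle, epithelial and tuft cell genes 0 of 8, 0 of 10 and 0 of 7 passed by limma (smallest adjusted p = 0.465, 0.281 and 0.342), and 0 of them had an unadjusted p under 0.05. For these 6 lists the summed signals of Wistar and GK-Sham-PF rats overlapped. The part of any of these cells in the Vip and Npy differences was not tested.

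**Figure D4:**
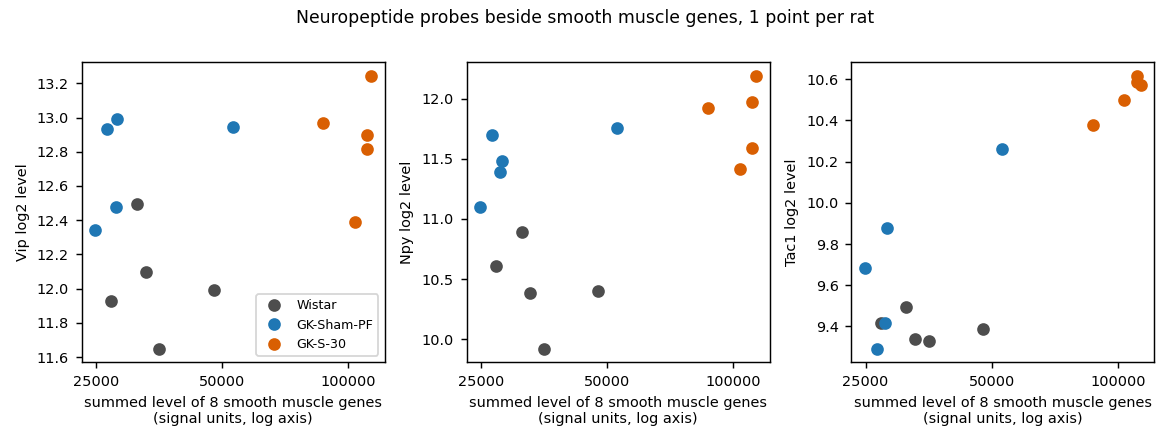
Log2 level (y axis) of the Vip, Npy and Tac1 probes against the summed signal of 8 smooth muscle genes (x axis, log scale), 1 point per rat, colored by group. GK-S-30 rats lie apart at 86982 to 113209 units, and GK-Sham-PF 4 lies nearest to them at 52949 units with the highest Tac1 level of its group (10.26).

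Single rats were then compared with the mean of their own group, which leaves the group differences out. Over the 15 rats, deviations of Vip and Npy correlated at Pearson r = 0.86, the highest of the 21 pairs of the 7 tested members (each by its brightest probe), while the remaining pairs lay between -0.31 and 0.79. Tac1 deviated with Cartpt (0.79) and Elavl4 (0.78), and Cartpt with Uchl1 (0.68) and Elavl4 (0.66), but Tac1 with Vip and Npy only at 0.28 and 0.22, and Cartpt with Vip and Npy at -0.21 and -0.28. These values are a description of 15 arrays, whose points share the array, its brightness and the makeup of the piece. GK-Sham-PF 4, which carried the largest Tac1 and Cartpt deviations, weighs heavily in the second group of pairs. The mean deviation of the 7 members correlated with that of the pan-neuronal genes at 0.66 and of smooth muscle genes at 0.64. With glial genes the correlation was 0.11 and with epithelial genes -0.31. GK-Sham-PF 4 had the largest deviation of all 15 rats for the members (0.36), pan-neuronal genes (0.22) and smooth muscle genes (0.72). This rat therefore also weighs heavily in the correlations with pan-neuronal and smooth muscle genes, which were not recomputed without it.

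**Figure D5:**
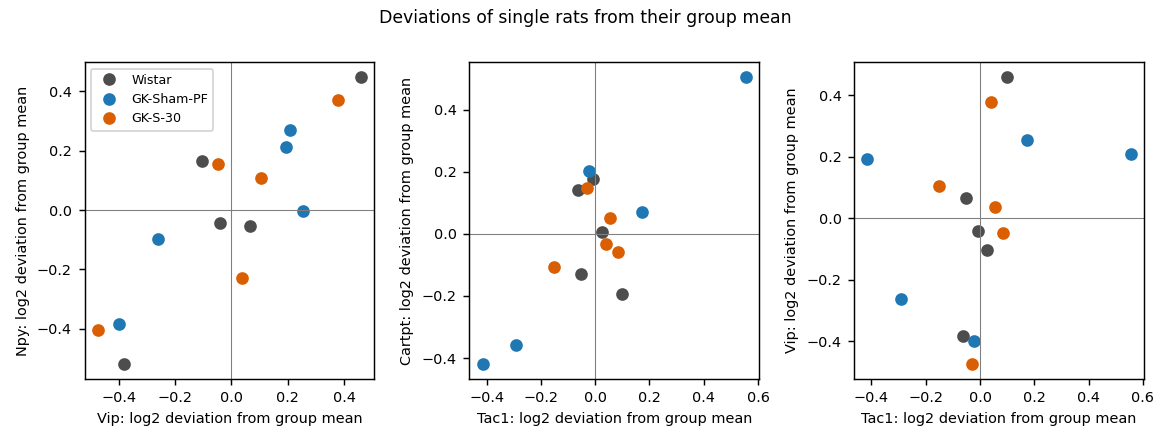
Log2 deviation of each rat from the mean of its group for 2 members at a time (x and y axes), 15 points colored by group. Vip and Npy deviated together (r = 0.86), as did Tac1 and Cartpt (0.79), whereas Tac1 and Vip did so weakly (0.28).

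Deviations were also compared with those of all named tested genes outside the 9 members, each gene by its most similar probe. For Cartpt the nearest was Slc18a3 (r = 0.88), the vesicular acetylcholine transporter named above. LOC683460 (0.87), Or12e9 (0.87), Ddah1 (0.85) and Ffar3 (0.85) came next. Elavl4 was followed by Chordc1 (0.97), by Calb2 (0.94), which encodes calretinin, a marker of a class of enteric neurons, and by Nrxn2 (0.92), a neurexin of the presynaptic membrane. Next for Elavl4 were Ndn (0.92) and Nlrp1b (0.91). For Tac1 the nearest were Bex2 (0.91), Cpne4 (0.90), Syngr3 (0.88), a protein of synaptic vesicles, Mpp7 (0.87) and Nudt7 (0.86). For Uchl1 they were Pea15 (0.92), Cntn1 (0.91), an adhesion molecule of axons, Cpne4 (0.90), Ppm1d (0.90) and Fbxl8 (0.89). Vip and Npy, which as members were left out here, correlated with each other at 0.86. Outside the members, the nearest to Vip were Tmigd1 (0.91), Tenm3 (0.87), Lepr (0.85), Msr1 (0.85) and Fcgr3a (0.85). The nearest to Npy were Rasal2 (0.88), Tmigd1 (0.87), Egflam (0.84), Mccc1 (0.83) and Aif1 (0.83). Of these, Msr1 and Aif1 are genes of macrophages, and Fcgr3a encodes an Fc receptor of macrophages and other leukocytes. Ret was nearest to Adcy2 (0.88), then to Rhoh (0.87), Ssbp2 (0.86), Lrrn3 (0.86) and Adgrg6 (0.86). The mean of the members was nearest to Cpne4 (0.92), Prr3 (0.90) and Gap43 (0.90), a growth-cone protein of neurons. These correlations, each over 15 rats and picked as the highest among 13024 tested genes with the members left out, describe these arrays only.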

How the data were processed

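RNA of 1 intestinal piece per rat was labelled with 1 dye (Cy3) and read on 1-colour Agilent rat genome arrays, 5 per group. The authors deposited Feature Extraction output (version 10.7.3.1) with the background-corrected processed signal and raw mean and background signals as intensity values, and a value table on the log2 scale, quantile-normalized. Here, outlier spots were left out, spots of a probe averaged, and log2 values quantile-normalized over 41012 probes. Symbols were updated through RefSeq (GRCr8; 17541 probes by accession, 3098 by symbol, 539 by synonym, 1325 unchanged), and 18509 unnamed probes were not tested. Groups were compared with limma 3.58.1 in R 4.3.3 (lmFit, contrasts.fit, eBayes) over all 15 arrays without covariates, with Benjamini-Hochberg adjustment over 17029 probes at 0.05. Of other genes, those called in any comparison or acting directly on a member's transmitter are named. For likeness, up to 5 genes per member were read, with the members themselves left out. The members and lists were chosen with earlier results of these data known. The median standard error was 0.15, and the number of arrays limits the precision. The procedure was tested on simulated data. Figures were drawn with matplotlib 3.10.9.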

Additional observations from a re-analysis of the deposited data

Results flagged for a closer look

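The highest or lowest rat of each group of 5 was set against its nearest neighbor for the 9 tested member probes and 7 marker lists, 48 groups in all, and chance alone would single out about 1 in 20. In none of the member probes did a rat stand apart by this measure. In the summed signal of 8 smooth muscle genes GK-Sham-PF 4 did, at 52949 against 28106 for the next GK-Sham-PF rat. In the summed signal of 8 fibroblast genes GK-S-30 4 lay below the other GK-S-30 rats, at 24975 against 27708 for the next.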

How the results depend on the processing

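Each call was recomputed under 29 settings. All 6 calls of member probes kept their direction in all 29, but slide as a fixed block ended each of them. It compares rats within slides, and links GK-S-30 with Wistar rats through GK-Sham-PF rats on slides B and C. Its comparisons with Wistar rats rest on Wistar 1 alone, because slide A held no other group. Member probes called then numbered 0 in the strain comparison, 0 between GK-S-30 and Wistar rats and 1 in the bypass comparison (Elavl4, lower). All tested probes called fell to 210, 268 and 327 in that order. With slide as a random block (correlation -0.04) 2, 3 and 1 member probes passed. Replicate numbers did not pair the arrays (deviations of same-numbered rats correlated between -0.29 and 0.20, and 1 of 15 arrays was nearest to its own number). With the replicate block 986, 963 and 3350 probes passed in the strain comparison, the bypass comparison and GK-S-30 against Wistar rats, and Vip was no longer called between GK-Sham-PF and Wistar rats (1 member probe left, adjusted p = 0.0617). The methods' Tukey comparison without adjustment over probes called 2373, 2565 and 4690 probes in that order and 2 members in the bypass comparison (Tac1 and Ret A_44_P308662). Adjusted over probes it called 827, 565 and 2690, and 1 member between GK-Sham-PF and Wistar rats. With unnamed probes included, 2184 probes passed between GK-Sham-PF and Wistar and 6352 between GK-S-30 and Wistar rats.

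Leaving out 1 array at a time gave 997 to 1473, 937 to 1726 and 3364 to 4531 probes in that order, with 937 without GK-Sham-PF 2 and 947 without GK-Sham-PF 1 in place of 1424, and 1 to 2, 1 to 1 and 3 to 4 member probes. Without the 2 dimmer arrays, a setting chosen after seeing the data, 2, 1 and 3 member probes passed.

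Differences near 0 changed sign. With slide as a block, the strain comparison gave -0.36 for Cartpt, -0.55 for Ret A_44_P153972 and -0.0455 for Ret A_44_P308662, and Uchl1 gave -0.14 in the bypass comparison and -0.10 for GK-S-30 against Wistar. Without the dimmer arrays, Cartpt gave -0.0467 and Ret A_44_P153972 -0.16 in the strain comparison, Elavl4 0.0363 for GK-S-30 against Wistar and Uchl1 -0.0408 in the bypass comparison. Scaling to the 75th percentile gave -0.0148 for the last of these, and background correction by normexp gave -0.0075 for Ret A_44_P153972 between GK-Sham-PF and Wistar. With single arrays left out, the strain comparison ranged from -0.0742 to 0.16 for Cartpt and from -0.0167 to 0.10, -0.0632 to 0.17 and -0.0395 to 0.10 for Ret A_42_P602822, A_44_P153972 and A_44_P308662. Elavl4 in GK-S-30 against Wistar ranged from -0.0627 to 0.0363, and Uchl1 in the bypass comparison from -0.0558 to 0.12. The cause of these changes was not tested.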
